A study of Mus musculus with 239 samples.

Results

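The 10 genes of the insulin-like growth factor (IGF) system examined here in single mammary cells are 10 of the 18850 genes in the expression table. They were chosen by name: the ligand genes Igf1 and Igf2, the receptor genes Igf1r and Insr, and the genes of 6 binding proteins, Igfbp2 to Igfbp7. The cells came from wild-type FVB female mice of 3 to 4 months of which some were virgin and some were pregnant, at day 12 of gestation by the design text and 12.5 by the protocol. No transgene or other treatment is named in the labels. The fourth pair of glands was dissociated, haematopoietic and endothelial cells were depleted, and viable cells were sorted by the surface proteins CD24 and CD29 into a basal and a luminal gate. Of the 239 cells, 34 were virgin basal, 54 virgin luminal and 49 pregnant luminal, and the others were pregnant basal cells, the largest group. No label ties a cell to a mouse, chip or day, so each group was treated as 1 sample, no test was made, and SD and intervals describe the spread or the counting of cells only.

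IGF1 and IGF2 are secreted growth factors that signal through the IGF1 receptor, a tyrosine kinase closely related to the insulin receptor. The binding proteins hold the ligands in the circulation and in the matrix around cells, where they can keep them from the receptor or deliver them to it, and proteases release the ligands again. In the mammary gland, IGF1 made largely by stromal cells acts on the epithelium during ductal growth and pregnancy, and IGFBP5 is best known there for its increase when milk secretion ends.

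Levels are in FPKM, fragments scaled by transcript length and sequencing depth, so that genes can be set side by side. A gene was counted as found in a cell at 1 FPKM or more, and differences between groups are between means over cells of log2(FPKM + 1), which understates changes of low genes. The steps between low values gave median depths of 6.18 M fragments (M for mega) per virgin basal cell, 8.53 M per virgin luminal, 9.11 M per pregnant basal and 8.85 M per pregnant luminal cell, and single cells ranged from 1.15 to 39.9 M. Virgin basal cells had the fewest genes, with a median of 1825 found per cell, against 3773, 2734.5 and 3653 for the other groups in the same order. The gates carried their markers: the median of the summed FPKM of 10 basal markers (such as Krt5, Krt14 and Acta2) was 4538 and 11198 in virgin and pregnant basal cells and 0.34 and 94.05 in virgin and pregnant luminal cells. Even so, in 2 virgin basal and 4 pregnant luminal cells the mean log2 level of the other gate's 10 markers exceeded that of their own, and these are called cells against their gate. Another 8 virgin basal, 5 virgin luminal, 10 pregnant basal and 3 pregnant luminal cells had at least 2 markers of 1 other cell type at 10 FPKM or more, and these sets can overlap. Differences of the members that cross 1 without these cells are given both ways.

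The ligand genes were almost silent in the sorted cells. Igf1 reached 1 FPKM in 4 of 239 cells and Igf2 in 2. Traces were common: Igf1 was above 0 in 139 cells, and Igf2 in 15 virgin basal, 23 virgin luminal, 45 pregnant basal and 19 pregnant luminal cells, where 1 fragment in the median cell was worth 0.0145 FPKM for Igf1 and 0.0270 for Igf2. The Igf1 medians were 0 FPKM for virgin basal, 0.0152 for virgin luminal, 0.0126 for pregnant basal and 0.0127 for pregnant luminal cells. The lowest Igf1 value was 0 in every group, and the highest was 0.170, 22.3, 23.9 and 7.52 FPKM in the same order. Igf2 had a median of 0 in every group, with highest values of 2.46, 0.131, 0.305 and 55.9 FPKM. The groups overlapped fully for both genes. Igf1, Igf2 and Igfbp6 did not pass the filter on low genes, which the other 7 members did. Igf1 and Igf2 overlap antisense genes, and Igf2 also overlaps a further protein-coding gene model on its strand, in the GENCODE annotation. The libraries do not mark strand, so fragments of overlapping genes cannot be told apart.

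All 4 cells with Igf1 had at least 2 markers of another cell type at 10 FPKM or more. Pregnant basal cells 73 (23.9 FPKM) and 16 (2.45 FPKM) had 8 and 10 of 11 endothelial markers, and pregnant luminal cell 37 (7.52 FPKM) had 9 of 10 fibroblast markers. Virgin luminal cell 17 (22.3 FPKM) had all 10 luminal markers and 3 of 11 immune markers. It stood less apart, being among 5 virgin luminal cells with at least 2 immune markers at 10 FPKM or more. Ptprc, Cd3e, Cd79a, Ms4a1 and Tyrobp of this immune list were found in no virgin luminal cell. Of the cells with Igf2, virgin basal cell 21 (2.46 FPKM) had 8 endothelial markers and no basal marker, whereas pregnant luminal cell 36 (55.9 FPKM) had 9 of 10 luminal markers and no endothelial or fibroblast marker.

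Igf1r, which encodes the receptor for both IGFs, was a gene of the basal gate at both stages. Its transcript was found in 20 of 34 virgin basal cells (58.8%, exact Clopper-Pearson 95% interval 40.7 to 75.4) and in 69 pregnant basal cells (67.6%, 57.7 to 76.6). In the luminal gate it was found in 8 of 54 virgin cells (14.8%, 6.62 to 27.1) and 11 of 49 pregnant cells (22.4%, 11.8 to 36.6). Basal medians were 1.58 FPKM (virgin) and 2.62 FPKM (pregnant), against luminal medians of 0.0378 and 0.0173 FPKM. The highest cell of each group had 95.7, 60.01, 4.76 and 3.67 FPKM in that order, so no luminal cell came near the upper basal range, although every group also held cells at 0. On the log2 scale the basal means were 2.06 ± 2.13 (SD over cells) in virgin and 2.09 ± 1.67 in pregnant mice, and the luminal means 0.37 ± 0.68 and 0.41 ± 0.64. The basal excess was thus 1.69 in virgin and 1.67 in pregnant mice, while the stages differed by 0.03 in the basal and 0.04 in the luminal gate. With a pseudocount of 10 the 2 basal excesses were below 1 (0.65 and 0.54).

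Insr, the insulin receptor gene, was sparse and did not follow the gates in the same way. Cells with it numbered 3 of 34 virgin basal (8.82%, 1.86 to 23.7), 12 of 54 virgin luminal (22.2%, 12.04 to 35.6), 8 pregnant basal (7.84%, 3.45 to 14.9) and 6 of 49 pregnant luminal cells (12.2%, 4.63 to 24.8). The medians were at or below 0.0428 FPKM in every group, and the highest cells had 12.1, 16.9, 84.5 and 23.9 FPKM. Its mean log2 level was highest in virgin luminal cells, 0.64 ± 1.15, and lowest in virgin basal cells, 0.29 ± 0.90, which is well within the spread of either. Igf1r and Insr were found together in 2, 2, 5 and 1 cells of the 4 groups. Insr overlaps a pseudogene and an antisense gene on the other strand.

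**Figure D1:**
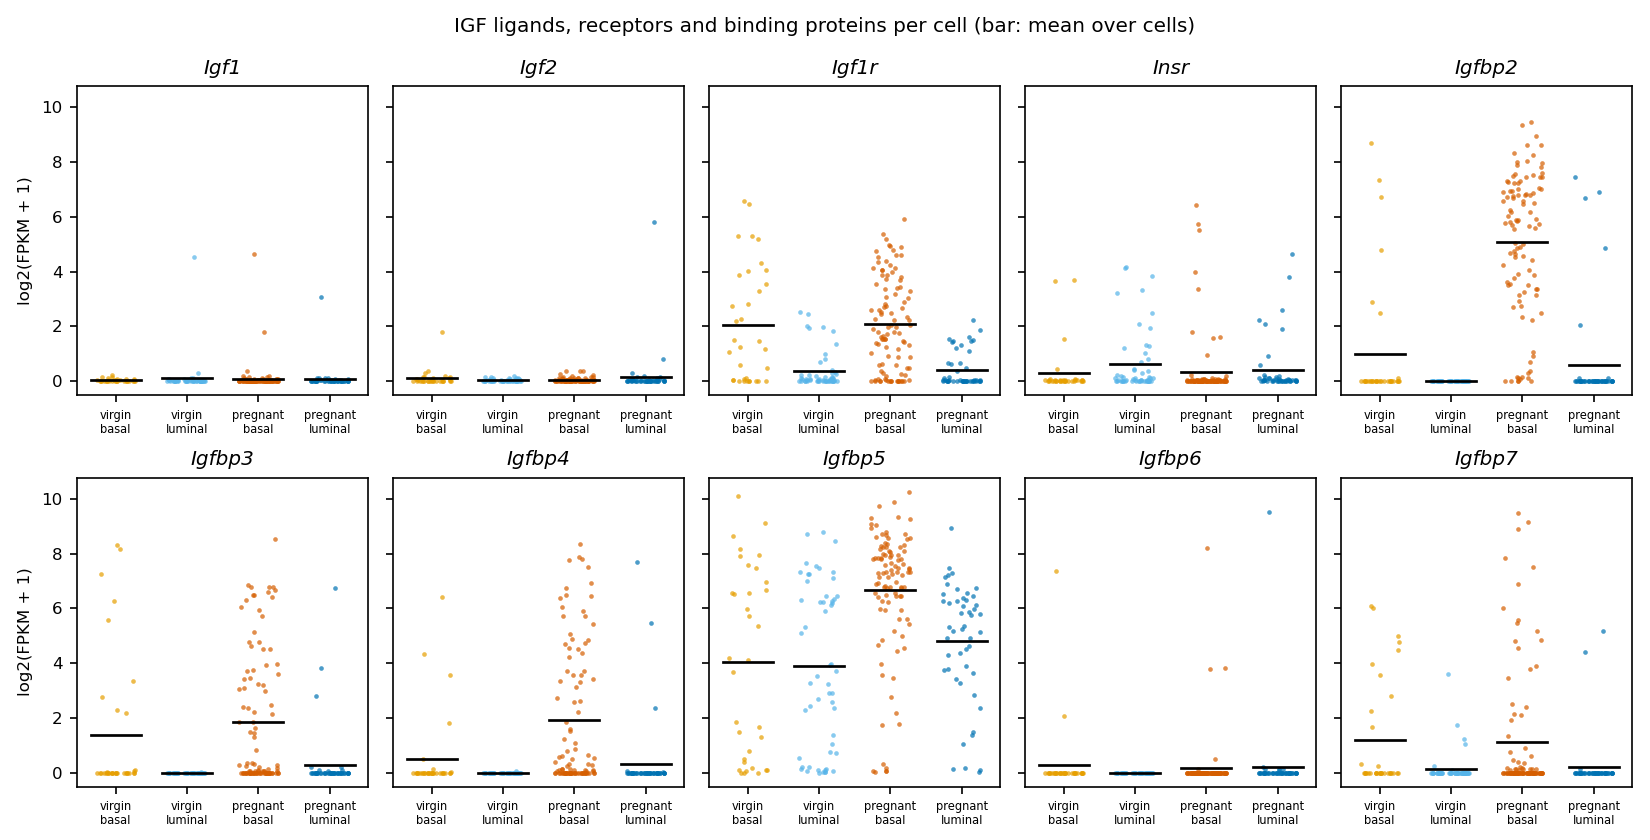
Level of each of the 10 members in each cell as log2(FPKM + 1), by group; each point is 1 cell and the bar is the mean over the cells of the group. Igf1, Igf2 and Igfbp6 are near 0 in nearly all cells, Igf1r is higher in the basal groups, Igfbp2 is high mainly in pregnant basal cells, and Igfbp5 is spread over the whole range in each group.

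Igfbp5 had the highest mean FPKM of the 10 genes in every group, its share of the members' summed FPKM being 60.2% for virgin basal, 95.9% for virgin luminal, 54.2% for pregnant basal and 62.7% for pregnant luminal cells. Next in line came Igfbp3 in virgin basal (26.4 FPKM), Insr in virgin luminal (1.55 FPKM), Igfbp2 in pregnant basal (96.5 FPKM) and Igfbp6 in pregnant luminal cells (14.9 FPKM, all but a trace of it from cell 37). Pregnant basal cells combined more binding proteins per cell. Their median was 3 of the 6 (range 0 to 6), against 1 in each of the other groups. Virgin basal cells also had fewer genes found (median 1825) than pregnant basal cells (2734.5), and the count was not compared at like gene number. At least 3 were found in 62 pregnant basal cells (60.8%), in 6 virgin basal (17.6%), in 4 pregnant luminal (8.16%) and in none of the 54 virgin luminal cells, a count that leaves room for a share of at most 5.56%.

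A group of 4 of these genes carried most of the differences between groups: Igfbp2, Igfbp3 and Igfbp4, which were nearly absent from the luminal gate, and Igfbp5, which was found in both gates. Their upstream sequences are shown to set the 3 basal-gate genes beside the shared one. Each is the 250 bases before the RefSeq start (GRCm38.p6), written 5′ to 3′ on the gene's own strand, and capitals mark matches to the motifs searched on both strands. The TATA motif was searched as TATAAA, with the similar word TATATA, which can overlap the first. A further AT-rich word, TTTAAA, was added after the sequences had been seen. The other motifs were the GC box, read as GGGCGG on either strand, and the E box, read as CACGTG. Windows were matched for 9 of the 10 members, all but Insr.
Igfbp2 (chr1:72824230-72824479, plus strand): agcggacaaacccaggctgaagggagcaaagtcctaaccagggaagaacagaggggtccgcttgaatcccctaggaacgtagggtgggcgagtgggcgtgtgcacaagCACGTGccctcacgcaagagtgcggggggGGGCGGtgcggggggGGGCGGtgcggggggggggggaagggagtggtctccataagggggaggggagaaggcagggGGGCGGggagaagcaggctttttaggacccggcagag
Igfbp3 (chr11:7213924-7214173, minus strand): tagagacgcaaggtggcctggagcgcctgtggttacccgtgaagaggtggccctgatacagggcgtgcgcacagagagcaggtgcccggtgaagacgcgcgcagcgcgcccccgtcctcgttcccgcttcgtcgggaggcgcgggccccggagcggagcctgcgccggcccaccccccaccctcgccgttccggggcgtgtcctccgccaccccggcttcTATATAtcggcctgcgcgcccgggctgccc
Igfbp4 (chr11:99040994-99041243, plus strand): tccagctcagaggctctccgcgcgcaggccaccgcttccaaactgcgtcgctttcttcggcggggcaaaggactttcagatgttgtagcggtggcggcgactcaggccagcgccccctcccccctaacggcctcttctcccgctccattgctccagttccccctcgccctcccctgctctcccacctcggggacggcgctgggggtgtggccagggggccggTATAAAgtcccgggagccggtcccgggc
Igfbp5 (chr1:72874866-72875115, minus strand): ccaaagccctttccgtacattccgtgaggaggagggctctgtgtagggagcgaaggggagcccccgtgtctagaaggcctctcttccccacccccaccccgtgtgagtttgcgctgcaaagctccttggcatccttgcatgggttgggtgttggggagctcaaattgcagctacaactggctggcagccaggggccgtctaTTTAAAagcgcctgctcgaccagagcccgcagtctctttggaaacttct
Igfbp2 had none of the AT-rich words in the window shown but 3 GC boxes, 113, 98 and 37 bases before the start, and an E box 142 bases before it. A further Igfbp2 window (chr1:72825137-72825386, plus strand), not shown, had none of the motifs searched. The others had no GC box and 1 AT-rich word each: TATATA lay 30 bases before the start of Igfbp3. TATAAA lay 28 bases before the start of Igfbp4. TTTAAA lay 49 bases before the start of Igfbp5. Of 32851 promoter windows of the same length, 32.7% held the GC box and 6.02% the E box. The AT-rich words were held by 12.4% (the Igfbp4 word), 5.25% (the Igfbp3 word) and 12.1% (the Igfbp5 word). Igfbp7, with 4, Igf1r, with 2, and 2 of the 4 Igf2 windows, with 1 and 2, had GC boxes as well. The Igfbp4 word also lay in the Igfbp6 window, on the opposite strand and 148 bases before the start. A match describes the letters and not a bound site. Igfbp2, Igfbp3 and Igfbp4 shared none of these words with one another, but Igf1r, also a gene of the basal gate, shared the GC box with Igfbp2.

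Igfbp2, whose protein binds both IGFs and also contacts integrins, marked pregnant basal cells. Of these, 88 had it at 1 FPKM or more (86.3%, 78.04 to 92.3), as did 6 of 34 virgin basal cells (17.6%, 6.76 to 34.5) and 5 of 49 pregnant luminal cells (10.2%, 3.40 to 22.2). All 54 virgin luminal cells were listed at 0, where the exact interval again reaches 6.60%. The lowest pregnant basal cell was at 0, the median at 54.4 FPKM and the highest at 698. In virgin basal cells the median was 0, and the 6 cells above threshold ran from 4.62 to 414 FPKM. The groups thus overlapped, but 76 pregnant basal cells and 4 virgin basal cells reached 10 FPKM. One fragment was worth 0.0863 FPKM in the median cell and 0.655 in the shallowest, so that 1 FPKM lay above a single fragment in every cell.

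The mean log2 level of Igfbp2 was 5.08 ± 2.61 for pregnant and 0.97 ± 2.34 for virgin basal cells, a difference of 4.10. It was the 1 gap between groups next to each other in level, of 30 such gaps over the 10 genes, that was larger than the larger of the 2 SDs. It lay between 2.03 and 6.44 under all 9 alternatives. Among cells with at least 2000 genes, which evens out part of the difference in gene number, Igfbp2 was found in 4 of 12 virgin basal and 85 of 93 pregnant basal cells, and the difference was 3.67. Against pregnant luminal cells the difference was 4.50, with a range of 2.22 to 7.07. In virgin mice the basal mean exceeded the luminal one by 0.97, just below the threshold of 1, and passed 1 under 7 of 10 alternatives, among them the one without cells with markers of another cell type (1.27) and the one without cells against their gate (1.03).

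Among pregnant luminal cells, Igfbp2 was found where basal or fibroblast markers were found. All 4 cells against their gate had it, at 3.09 to 173 FPKM. These cells had 7 to 10 of 10 basal markers and also 4 to 8 of 10 luminal markers. Of the other 45 cells 1 had it, cell 37, beside its fibroblast markers. Within pregnant basal cells, Igfbp2 was higher where basal markers were higher, with r = 0.53 over these cells, although it also followed the number of genes found (r = 0.44). Its relation was not to basal markers alone, as r was 0.35 with luminal, 0.21 with fibroblast and -0.37 with endothelial markers. The r of 0.53 rests in part on a few cells with low basal markers. Cells 16 and 73, for example, had basal marker means of 2.70 and 1.15 and Igfbp2 at 0.24 and 0 FPKM. Its value without such cells was not computed. The r with basal markers was 0.18 over the 34 virgin basal cells, where full basal marker levels mostly went with an Igfbp2 value of 0. These are correlations over cells that share libraries, depth and gene numbers, and they are given as descriptions.

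**Figure D2:**
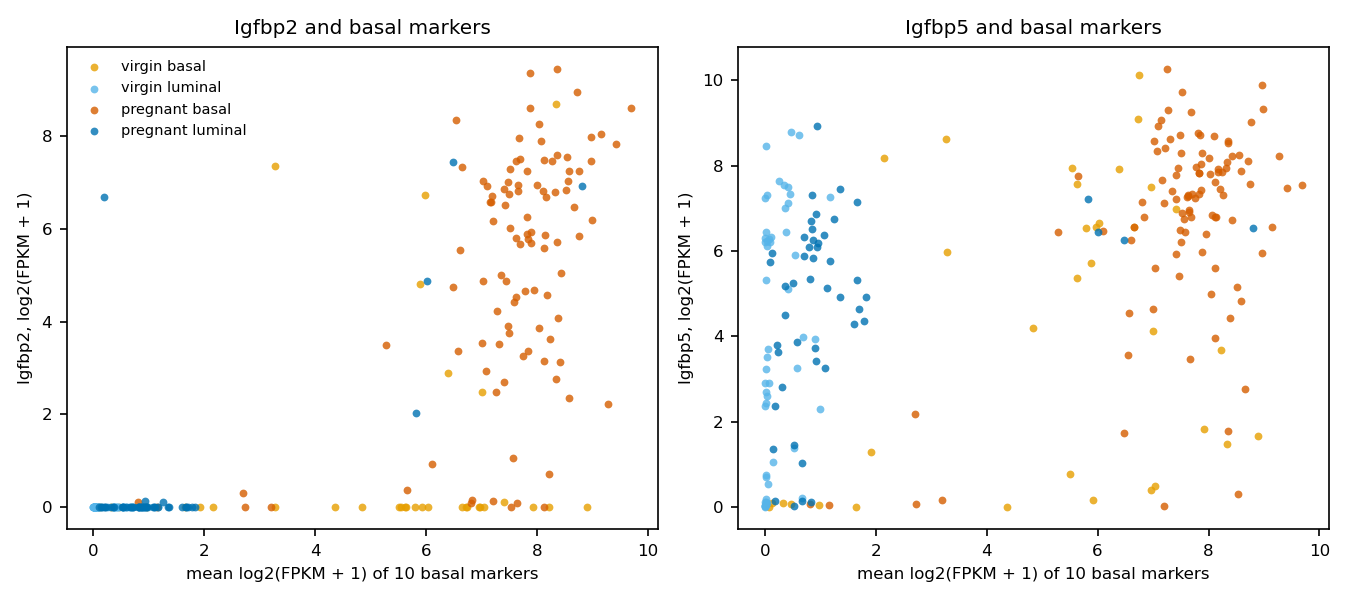
Igfbp2 (left) and Igfbp5 (right), as log2(FPKM + 1), against the mean log2(FPKM + 1) of 10 basal markers; each point is 1 cell, coloured by group. Virgin basal cells with high basal markers mostly lie at an Igfbp2 value of 0, where pregnant basal cells have a median of 54.4 FPKM, and the 4 pregnant luminal cells at high basal markers have Igfbp2; Igfbp5 is high at both ends of the marker axis.

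Igfbp3, which encodes the main IGF carrier of the circulation, was a basal-gate gene in part of the cells. It was found in 9 of 34 virgin basal cells (26.5%, 12.9 to 44.4) and 43 pregnant basal cells (42.2%, 32.4 to 52.3). In the luminal gate it was found in 0 of 54 virgin cells (exact interval up to 6.60%) and in 3 of 49 pregnant cells (6.12%, 1.28 to 16.9). The basal medians were 0 FPKM (virgin) and 0.133 FPKM (pregnant), with highest values of 315 and 370. In pregnant luminal cells the highest value was 107 FPKM, in cell 2, which had 10 of 10 basal and 6 of 10 luminal markers. The basal mean log2 level was 1.36 ± 2.61 in virgin and 1.83 ± 2.43 in pregnant mice, and the pregnant luminal mean was 0.29 ± 1.16. The highest virgin luminal cell had 0.0144 FPKM. The gates differed by 1.36 in virgin and 1.55 in pregnant mice, and with a pseudocount of 10 by 0.65 and 0.63. The stage difference in the basal gate was 0.47 and had no stable sign, lying between -0.61 and 1.09 over the alternatives.

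Igfbp4, whose protein mainly restrains IGF action and is cut by the protease PAPP-A, was found mostly in pregnant basal cells. It was found in 41 of them (40.2%, 30.6 to 50.4) and in 4 of 34 virgin basal cells (11.8%, 3.30 to 27.5). In the luminal gate 0 of 54 virgin cells had it (exact interval again up to 6.60%), and 3 of 49 pregnant cells (6.12%, 1.28 to 16.9). Its median was 0.233 FPKM in pregnant basal cells and 0 in the other groups, with highest values of 326 FPKM for pregnant basal, 85.4 for virgin basal, 207 for pregnant luminal and 0.0515 for virgin luminal cells. The mean log2 level of 1.91 ± 2.54 in pregnant basal cells was 1.42 above that of virgin basal cells (0.49 ± 1.44) and 1.60 above that of pregnant luminal cells (0.32 ± 1.37). Both differences are smaller than the spread over pregnant basal cells, most of which were below 1 FPKM. With a pseudocount of 10 they were 0.62 and 0.65. The highest cells of the first 3 of these groups, pregnant basal cell 16, virgin basal cell 21 and pregnant luminal cell 37, had 10 endothelial, 8 endothelial and 9 fibroblast markers. Without cells of this kind the stage difference was 1.68.

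Igfbp5, whose protein binds IGFs and the extracellular matrix, was found in most cells of every group. Its counts were 23 of 34 virgin basal (67.6%, 49.5 to 82.6), 39 of 54 virgin luminal (72.2%, 58.4 to 83.5), 96 pregnant basal (94.1%, 87.6 to 97.8) and 45 of 49 pregnant luminal cells (91.8%, 80.4 to 97.7). The medians were 16.9, 11.3, 158 and 39.02 FPKM in that order. The lowest values were 0, 0, 0.0242 and 0.0128 FPKM and the highest 1111, 438, 1231 and 488 FPKM, so all groups overlapped over most of the range. Ranked by mean log2 level, pregnant basal cells (6.68 ± 2.34) came before pregnant luminal (4.81 ± 2.18), virgin basal (4.05 ± 3.42) and virgin luminal cells (3.89 ± 2.97), and no neighbouring pair in this order differed by more than its SD. The excess of pregnant basal over pregnant luminal cells, 1.86, stayed between 1.52 and 2.31 under all 9 alternatives.

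The stage difference of Igfbp5 in the basal gate, 2.62, moved with which virgin cells were counted. All 12 virgin basal cells with at least 2000 genes had Igfbp5, with a mean log2 level of 6.69, against 11 of the 22 with fewer genes, with a mean of 2.61. Among cells with at least 2000 genes the stage difference was 0.04, and it was -0.18 in the middle range of gene number (25th to 75th percentile over all cells), which holds 6 virgin basal cells. Igfbp5 was also below 1 FPKM in all 6 virgin basal cells with 2 or more endothelial markers at 10 FPKM, and found in 23 of the other 28. Without cells with markers of other types, the difference was 1.91. Whether gene number or cell type accounts for the lower virgin level was not tested.

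In virgin luminal cells Igfbp5 split along Esr1, the oestrogen receptor gene that marks hormone-sensing cells. Of 33 cells with Esr1, 20 had Igfbp5 (60.6%, 42.1 to 77.1), with a median of 4.44 FPKM, a highest value of 199 and a mean log2 level of 2.55 ± 2.41. Of 21 cells without Esr1, 19 had it (90.5%, 69.6 to 98.8), with a median of 127 FPKM, a highest value of 438 and a mean of 6.00 ± 2.52. The receptors split less clearly, Insr being found in 10 of 33 cells with Esr1 and 2 of 21 without, and Igf1r in 2 and 6. Esr1 was below 1 FPKM in all 49 pregnant luminal cells. Over all cells the pregnant luminal mean log2 level of Igfbp5 was 0.92 above the virgin one, although its mean FPKM was lower (59.6 against 66.6). The log2 difference was 1.20 without cells with markers of another cell type. Against virgin luminal cells without Esr1 it was -1.19, that is, the pregnant mean was lower. The difference between the virgin gates, 0.16 over all cells, turned both ways with the cells counted. Virgin basal minus virgin luminal cells without Esr1 gave -1.95, whereas the difference was 1.25 without cells with markers of another cell type, 2.77 among cells with at least 2000 genes and 2.59 in the middle range of gene number.

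**Figure D3:**
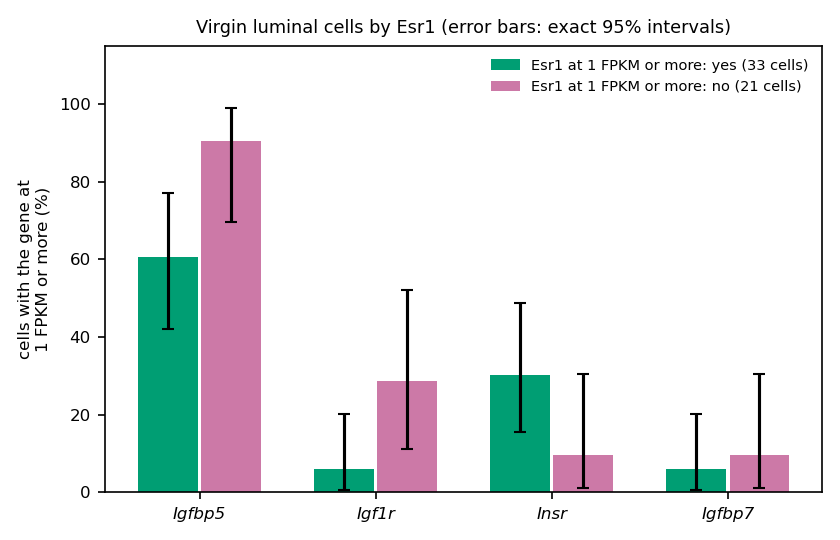
Share of virgin luminal cells with Igfbp5, Igf1r, Insr and Igfbp7 at 1 FPKM or more, for 33 cells with Esr1 and 21 without; error bars are exact 95% intervals. Igfbp5 was found in 60.6% and 90.5%, and the intervals of each pair overlap.

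Igfbp2 and Igfbp5 are neighbours on chromosome 1 (GRCm38, 72824503 to 72852474 on the plus strand and 72857932 to 72874884 on the minus strand), with 5457 bases between their ends. In pregnant basal cells both were found in 86 cells, Igfbp2 alone in 2, Igfbp5 alone in 10 and neither in 4. Igfbp2 had the higher FPKM in 29 of these cells. Their levels were only weakly related over pregnant basal cells (r = 0.15). In virgin luminal cells the neighbours parted altogether, with Igfbp5 in 39 cells and Igfbp2 in none. Of the 6 virgin basal cells with Igfbp2, all had Igfbp5.

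Igfbp6, whose protein prefers IGF2, was found in 6 cells: 2 virgin basal, 3 pregnant basal and 1 pregnant luminal. The highest was pregnant luminal cell 37, at 728 FPKM, which had 9 fibroblast markers and also Igf1, Igfbp2, Igfbp3, Igfbp4 and Igfbp7. Virgin basal cell 15, at 165 FPKM, had 8 fibroblast markers. Pregnant basal cell 61, at 293 FPKM, differed from these in having 9 basal markers and no fibroblast marker, and the pregnant basal cells at 12.7 and 13.3 FPKM had 10 basal markers each. All 54 virgin luminal cells were listed at 0.

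Igfbp7, a family member that binds IGFs weakly and is abundant in blood vessels, moved with endothelial markers. Cells with Igfbp7 were 10 of 34 virgin basal (29.4%, 15.1 to 47.5), 4 of 54 virgin luminal (7.41%, 2.06 to 17.9), 22 pregnant basal (21.6%, 14.04 to 30.8) and 2 of 49 pregnant luminal cells (4.08%, 0.498 to 13.98). Its median was 0 in every group, and the highest values were 66.7, 11.1, 709 and 34.996 FPKM in that order. Mean log2 levels were 1.21 ± 2.02, 0.15 ± 0.57, 1.12 ± 2.33 and 0.20 ± 0.96. The gates differed by 1.06 in virgin and 0.93 in pregnant mice, and the first of these fell below 1 with a pseudocount of 10 (0.41), against virgin luminal cells without Esr1 (0.98) and without the cells with markers of another cell type (0.42). In pregnant basal cells Igfbp7 was found in 5 of 5 cells with Cdh5, the gene of vascular cadherin, and in 17 of the other 97. In virgin basal cells the numbers were 4 of 7 and 6 of 27. In the 4 pregnant basal cells with 2 or more endothelial markers at 10 FPKM, Igfbp7 ran from 226 to 709 FPKM, whereas its highest value in the other 98 cells was 183. Antibody to CDH5 was part of the sort stain. Polr2b and an antisense gene overlap Igfbp7 on the other strand.

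In the same cells the other members did not move as 1 group. Igfbp5 was found in 2 of 5 pregnant basal cells with Cdh5 and 94 of 97 without, and Igfbp2 in 1 of 5 and 87 of 97. In contrast, Igf1r was found in 3 of 5 pregnant basal cells with Cdh5 and 66 of 97 without (mean log2 levels 2.31 and 2.07), Igfbp4 in 2 of 5 and 39 of 97 (2.01 and 1.91), and Igfbp3 in 2 of 5 and 41 of 97 (2.72 and 1.79). Among virgin basal cells Igf1r was found in 1 of 7 with Cdh5 and 19 of 27 without. Over all 11 endothelial markers, the summed FPKM per cell started at 0 in each group and reached 6733 for virgin basal, 45.1 for virgin luminal, 2167 for pregnant basal and 253 for pregnant luminal cells. All 11 markers were found in at least 1 cell of each basal group. In virgin luminal cells 2 were found, and Pecam1, Cdh5 and Kdr were not among them. The r of Igfbp7 with the endothelial marker mean was 0.61 over virgin and 0.67 over pregnant basal cells and rests on the few cells with these markers.

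**Figure D4:**
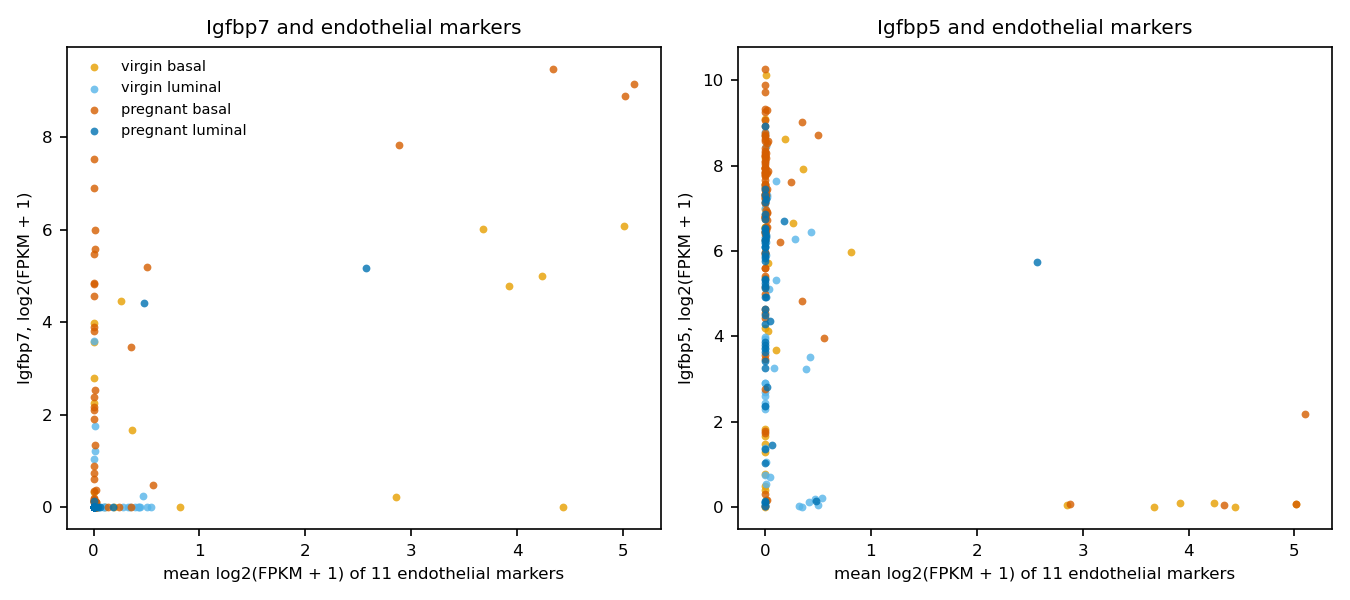
Igfbp7 (left) and Igfbp5 (right), as log2(FPKM + 1), against the mean log2(FPKM + 1) of 11 endothelial markers; each point is 1 cell, coloured by group. Most cells with high endothelial markers have Igfbp7, up to 709 FPKM in pregnant basal cells, and nearly all of them have little Igfbp5, but Igfbp7 is also found in cells without these markers.

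Counted over the 10 members, pregnancy in the basal gate came with 3 differences of at least 1, all higher (Igfbp2, Igfbp5 and Igfbp4), where 13.1% of the 9802 genes passing the low filter differed that much, 12.6% being higher and 0.479% lower. The median difference was 0.04 over the 10 members and 0.21 over all genes, which here means the 9802. Igf1, Igf2 and Igfbp6 did not pass this filter but count among the 10, so members and background are not like sets. Among the 7 members that passed it, the middle differences were 0.47, 0.29, 0.97 and 1.60 in the 4 comparisons, in the order given here. In the luminal gate, 0 members differed by 1 between the stages, against 10.4% of genes, 5.11% higher and 5.32% lower, with medians of 0.17 and -0.01. Between the gates of virgin mice, 3 members were higher in basal cells (Igf1r, Igfbp3 and Igfbp7) and 0 lower, against 2.54% and 28.4% of genes (30.9% in either direction), with medians of 0.39 and -0.50. In pregnant mice 5 were higher in basal cells (Igfbp2, Igfbp5, Igf1r, Igfbp4 and Igfbp3) and 0 lower, against 5.55% and 17.3% of genes (22.8% in either direction), with medians of 1.24 and -0.27. The comparisons share groups with one another, so their counts are not independent. Of these 11 differences, 3 stayed above 1 under every alternative: Igfbp2 in pregnant basal against both other groups, and Igfbp5 in pregnant basal against pregnant luminal cells.

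**Figure D5:**
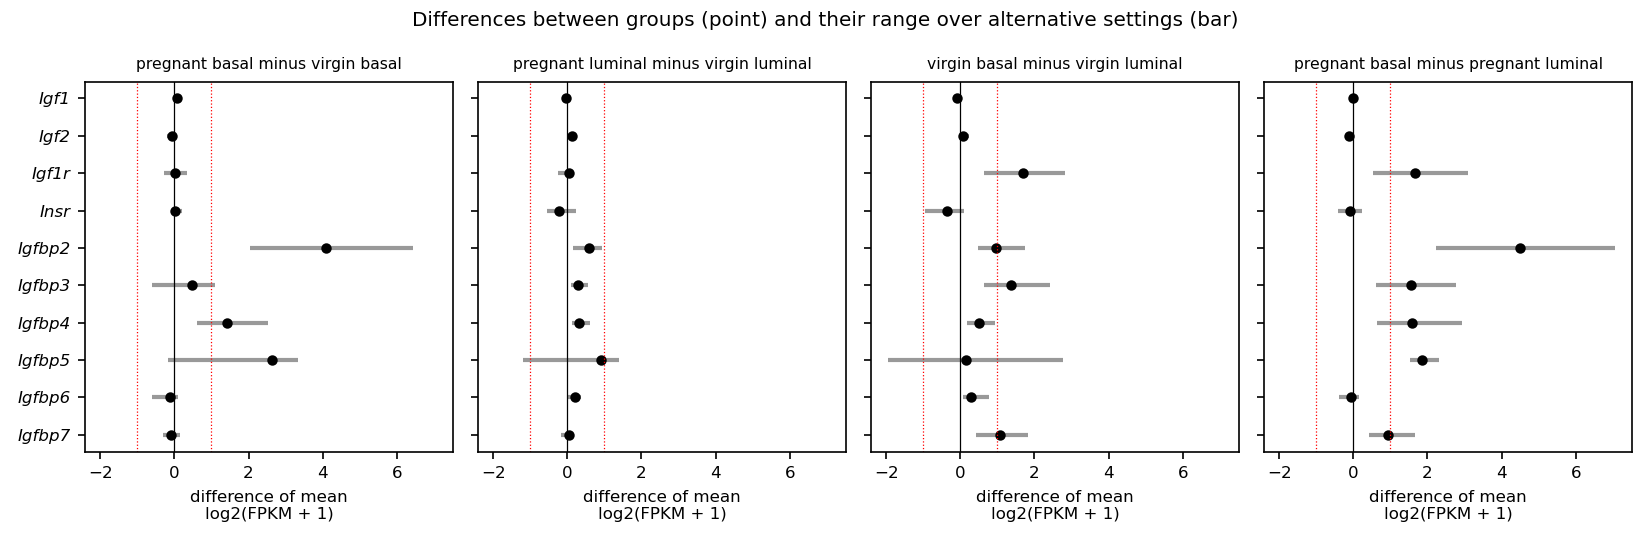
Difference of mean log2(FPKM + 1) for each member in the 4 comparisons (points), with the range over the alternative settings (grey bars); the solid line is 0 and the dotted lines are 1 and -1. Igfbp2 has the largest differences, in pregnant basal cells, and the bars of Igfbp5 cross 0 in 3 of the 4 comparisons.

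By the correlation of log2 levels over all 239 cells, the genes most like Igfbp2 were Mylk (r = 0.77), Fmod (0.76) and Spon2 (0.76). Those most like Igf1r were Cald1 (0.49), Tagln (0.48) and Sparc (0.48). For Igfbp3 they were Fstl1 (0.45), Krt17 (0.44) and Col4a2 (0.43), and for Igfbp4 Sparc (0.43), Col4a1 (0.43) and Col4a2 (0.43). Mylk, Tagln and Krt17 are basal markers, so over all cells these values carry the split between the gates. Igfbp5 was most like Lcn2 (0.54), Lgr4 (0.52) and Thbs1 (0.51), and Igfbp7 most like Fabp4 (0.54), Fam198b (0.54) and Cd93 (0.53), the last a gene of endothelial cells. For Insr no gene exceeded r = 0.29 (Ifnar2) over all cells. Within pregnant basal cells, the leading genes were Pfn1 (0.57), Tpm2 (0.56) and Cnn1 (0.56) for Igfbp2, and Tagln (0.56), Cd63 (0.51) and Myh11 (0.51) for Igfbp5. Tpm2, Cnn1, Tagln and Myh11 belong to the contractile apparatus. These values rest in part on a few pregnant basal cells with low basal markers. In cells 16 and 73, for example, the basal marker mean was 2.70 and 1.15, against 7.51 ± 1.45 over the group. Igfbp5 was at 3.55 and 0.039 FPKM in these 2 cells. The r without such cells was not computed. In the same group the leading genes were Sympk (0.33), Oxsr1 (0.29) and Lrrc2 (0.29) for Igf1r. They were Exoc7 (0.49), Gskip (0.38) and St7l (0.37) for Igfbp3, and Tmem183a (0.40), Fbxw9 (0.39) and Tmem18 (0.35) for Igfbp4. Insr within virgin luminal cells was most like 1700109H08Rik (0.57), Ptpn3 (0.55) and Fam65a (0.54). Igfbp7 within virgin basal cells was most like Gimap6 (0.77), Arhgap29 (0.73) and Il1r1 (0.71).

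Another 47 genes of the IGF pathway in the table were counted in the same way. Only 39 of them passed the low filter, whereas the shares of all genes are over genes that passed it. The pathway shares therefore include genes too low to reach a difference of 1, and the 2 kinds of share are not like for like. In pregnant against virgin basal cells 3 were higher and 1 lower, 8.51% of them against 13.1% of all genes (median 0.14, all genes 0.21). In the luminal gate 4 were higher and 4 lower, 17.0% against 10.4% (medians 0.06 and -0.01). Basal against luminal cells had 6 higher and 8 lower in virgin mice, 29.8% against 30.9% (-0.23 and -0.50), and 4 higher and 4 lower in pregnant mice, 17.0% against 22.8% (-0.01 and -0.27). The genes of other ligands were silent, as Ins1 and Ins2 did not reach 1 FPKM in any cell. Igf2r, whose protein removes IGF2 from the surface, was found in 51 of 54 virgin luminal, 46 of 49 pregnant luminal, 70 pregnant basal and 12 of 34 virgin basal cells, with mean log2 levels of 3.01, 2.61, 2.16 and 1.06. Igfals, which encodes the stabilising subunit of the circulating IGF complex, was found in 14 of 54 virgin luminal and 29 of 49 pregnant luminal cells but in 0 of 34 virgin basal and 1 pregnant basal cell.

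Genes of proteases that cut the binding proteins, and of their regulators, had 4 of 8 higher in basal than in luminal cells of pregnant mice and 0 lower (beside 5.55% higher and 17.3% lower of all genes), with a median of 0.73. In virgin mice 3 were higher and 1 lower (37.5% and 12.5%, against 2.54% and 28.4%), with a median of 0.39. Of these 8 genes, 6 passed the low filter that all genes of the background passed. Htra1, a serine protease that cuts IGFBP5, was found in 68 pregnant basal, 9 of 34 virgin basal, 5 of 49 pregnant luminal and 0 of 54 virgin luminal cells. Pappa, the protease of IGFBP4, was found in 39, 6, 2 and 1 cells in that order. Timp3, an inhibitor of metalloproteases, differed between the gates by 4.05 in virgin and 4.11 in pregnant mice, and Mmp2, a matrix metalloprotease, by 2.46 and 1.67. In the opposite direction, Stc2, an inhibitor of PAPP-A, was found in 30 of 54 virgin luminal cells (mean log2 level 2.51 ± 2.41), 5 of 49 pregnant luminal, 3 pregnant basal and 0 of 34 virgin basal cells.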

How the data were processed

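The authors deposited 1 table of FPKM values, 18850 genes by 239 cells. No header names the unit, which follows from the tools and from the values themselves. Per the submitters' processing notes, the tools were Trimmomatic 0.35, TopHat2 2.0.13 and Cufflinks 2.2.1, and the build was mm10 (GRCm38). The annotation and filters were not given in the sources used here. Per the labels' protocols, SMARTer chemistry on Fluidigm C1 chips was followed by Nextera XT libraries, and a microscope was used to look for doublets in the capture sites. No doublet caller was run. No 2 cells had identical values (0 pairs).

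Low deposited FPKM values are multiples of what 1 fragment is worth, which gave each cell's depth. In 11377 genes, 507509 values lay under 20 such steps, and 99.998% of them were whole within a tolerance of 0.05. The lengths of 1082 genes with a single transcript set the scale. PCR copies were not separated from molecules, so intervals cover only the counting of cells.

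Per member and group, the mean and SD over cells of log2(FPKM + 1), the range of FPKM, and the percentage of cells with the gene (1 FPKM or more), with an exact 95% interval (Clopper-Pearson), were computed in Python 3.11.15 with numpy 2.4.6, pandas 2.3.3 and scipy 1.17.1. For a share of 0, the limit given is the upper end of this exact interval. The background was the share of genes differing by at least 1 among 9802 genes whose share of cells, averaged over the 4 groups, was at least 5%. The computation was tested on simulated data. All 10 members were named. For each member found in at least 10% of cells, the 3 most correlated genes among genes found in at least 10% of cells were named, and up to 3 other pathway genes in each direction per comparison, beside genes singled out after their values were seen (Pappa). Of 48 listed pathway genes 47 were in the table. Splits by Cdh5 and Esr1 were planned, while those by endothelial markers, by gate and by 2000 genes were chosen after seeing the data, as was the alternative without virgin luminal cells with Esr1. The other alternatives were pseudocounts of 0.1 and 10, 2 rescalings and 5 choices of cells. Members and lists were chosen with earlier results of these data known. Promoter windows were copied from RefSeq, and gene coordinates from GENCODE, both on GRCm38.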

Additional observations from a re-analysis of the deposited data

How the results depend on the processing

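Over 9 alternatives, of 11 differences of at least 1 the 3 named in the report passed 1 throughout. The number of members past 1 moved by more than 1.5 times as follows. For pregnant against virgin luminal cells, 0 became 1 with a pseudocount of 0.1, without cells with markers of another cell type, and without the 10% of cells with fewest genes (each time Igfbp5 higher), and 1 without virgin luminal cells with Esr1 (Igfbp5 lower). For virgin basal against virgin luminal cells, 3 became 0 with a pseudocount of 10, and 5 both in cells with at least 2000 genes and in the middle range of gene number (25th to 75th percentile). For pregnant basal against pregnant luminal cells, 5 became 2 with a pseudocount of 10. Igfbp5 in pregnant against virgin basal cells, 2.62, reversed to -0.18 in this middle range, which left 6 virgin basal cells. No other difference past 1 changed sign. Smaller differences did so too, such as Igfbp5 in pregnant against virgin luminal cells (0.92, lowest -1.19). Igf1r in pregnant against virgin basal cells kept its sign in 2 of 9 alternatives. All differences, that of Igfbp5 included, moved by less than the larger SD over cells of the 2 groups compared. The median over all genes shifted with the scaling: between the virgin gates it was -0.50, and -0.77 with each cell rescaled to the same sum. The share of cells with a member depends on the threshold, and 39 of 80 shares moved outside their interval when it was set above 0 or at 10 FPKM. No paired analysis was possible because cell numbers only name cells and no result comes from a test. Depth and gene number limit what a missing low gene can show, most of all in virgin basal cells.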

Other observations

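Values are given here for genes of the growth hormone and prolactin signal relay and for genes that act downstream of the IGF and insulin receptors. Cish, a feedback inhibitor of cytokine receptors, had a mean log2 level of 3.66 ± 2.77 in pregnant and 1.12 ± 2.16 in virgin luminal cells, and was found in 38 of 49 and 14 of 54 cells. Stat5a, the transcription factor of prolactin and growth hormone, was found in 37 of 54 virgin and 37 of 49 pregnant luminal cells, against 12 of 34 virgin and 21 pregnant basal cells. Irs2, which encodes a substrate and adaptor of the receptors, differed by 1.15 between pregnant and virgin luminal cells. Ptpn1, a phosphatase of the insulin receptor, was lower in pregnancy in both gates, by differences of -2.52 in luminal and -1.23 in basal cells. Pik3r1, the regulatory subunit of PI3 kinase, was found in 72 pregnant and 12 of 34 virgin basal cells, a difference of 1.84. These values carry no test, and the number of genes found per virgin basal cell was the lowest of the 4 groups.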
